A study of Homo sapiens with 9 samples.

Results

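Carbonic anhydrases are zinc enzymes that turn carbon dioxide and water into bicarbonate and a proton. Cytosolic members such as CA2 and CA13 work inside the cell, CA9 and CA12 carry their catalytic domain on the outside of the plasma membrane, and CA8 and CA11 are related proteins that lack the catalytic activity. In the colon, CA1, CA2 and CA4 are known from differentiated surface epithelium, and CA9 and CA12 are known as genes induced when oxygen is low.

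The genes described are CA2, CA8, CA9, CA11, CA12 and CA13, 6 of the family, taken by their symbols in the array annotation and picked with the log2 signals of these arrays already known. Only probe sets annotated to exactly 1 gene symbol were used. That left 5 of the 6 genes with 14 probe sets, of the 28 that 14 genes of the family have. CA2 and CA11 have 1 probe set each, CA13 has 2, CA8 has 3 and CA12 has 7. No probe set was annotated to CA9 alone in the table used, and CA9 is not analysed here. All 5 genes were among the 13598 genes tested, as were 5 of the 9 other family genes. CA2, CA8 and CA13 lie on chromosome 8, CA11 on chromosome 19 and CA12 on chromosome 15.

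The study compared cell lines of one origin that differ in metastatic potential in mice. SCP51 is labelled as highly and SCP58 as poorly metastatic, and both were derived from the parent SW480/EGFP, a human colorectal carcinoma line that carries EGFP. SCP51 and SCP58 each stand for 1 derived line, so a difference between them is a difference between lines. All 3 lines were grown in the same serum-containing medium, and each has 3 arrays named as biological replicates. Whether those replicates were cultured apart is not stated, so a p-value here speaks of the spread among arrays, which may be technical. The signals are linear array intensities, and the lines are compared on the same probe sets. Bright and dim describe the signal of a probe set and do not rank transcript levels between genes.

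Array medians lay between 41.1 and 44.3, and they serve below as a mark of dim signal. SCP51 replicate 1 stood apart: its correlation with the other 8 arrays was 0.891 to 0.911, against 0.945 to 0.979 among those 8. Over all tested genes the median log2 difference was -0.11 for SCP51 minus SCP58, and -0.05 without that array. Of 8 epithelial markers 7 were tested, and EPCAM, an epithelial adhesion protein, was bright with mean log2 signals of 11.38 in SCP51, 11.55 in SCP58 and 11.57 in SW480/EGFP. CDX2, a factor of intestinal identity, was much dimmer at 5.68 in SCP51, 5.66 in SCP58 and 5.73 in SW480/EGFP. Of the marker lists for mature colonocytes, fibroblasts, leukocytes, endothelial and erythroid cells, 2 of 7, 2 of 6, 1 of 5, 2 of 3 and 2 of 3 genes were tested. No gene of these 5 lists or of the epithelial list was called in any comparison with limma. In bulk RNA, fewer cells with a transcript and less of it per cell cannot be told apart.

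Among the 5 genes, SCP51 had lower CA2 than both other lines and lower CA13 than SCP58. CA11 lay close together in the 3 lines, CA12 did not pass the test in any comparison, and CA8 was bright on single arrays of both derived lines. A gene was called at an adjusted p under 0.05 from limma, with the Benjamini-Hochberg adjustment made over the 13598 genes. In SCP51 minus SCP58, 2 of the 5 genes were called, both lower, where 4.08% of all genes were called. In SCP51 minus SW480/EGFP, 1 of 5 was called, also lower, where 2.96% of all genes were called. In SCP58 minus SW480/EGFP, limma called 0 of 5, where 0.140% of all genes were called, and 2 of 5 (CA12 and CA13) had an unadjusted p under 0.05. Because the genes were picked with these signals known, the counts are a description and nothing is read from them. The share of all genes at an unadjusted p under 0.05 was not counted. Counts at that threshold, here and below, therefore cannot be set against it. The comparisons that use SW480/EGFP share its 3 arrays, and those that use SCP51 share its arrays too.

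**Figure D1:**
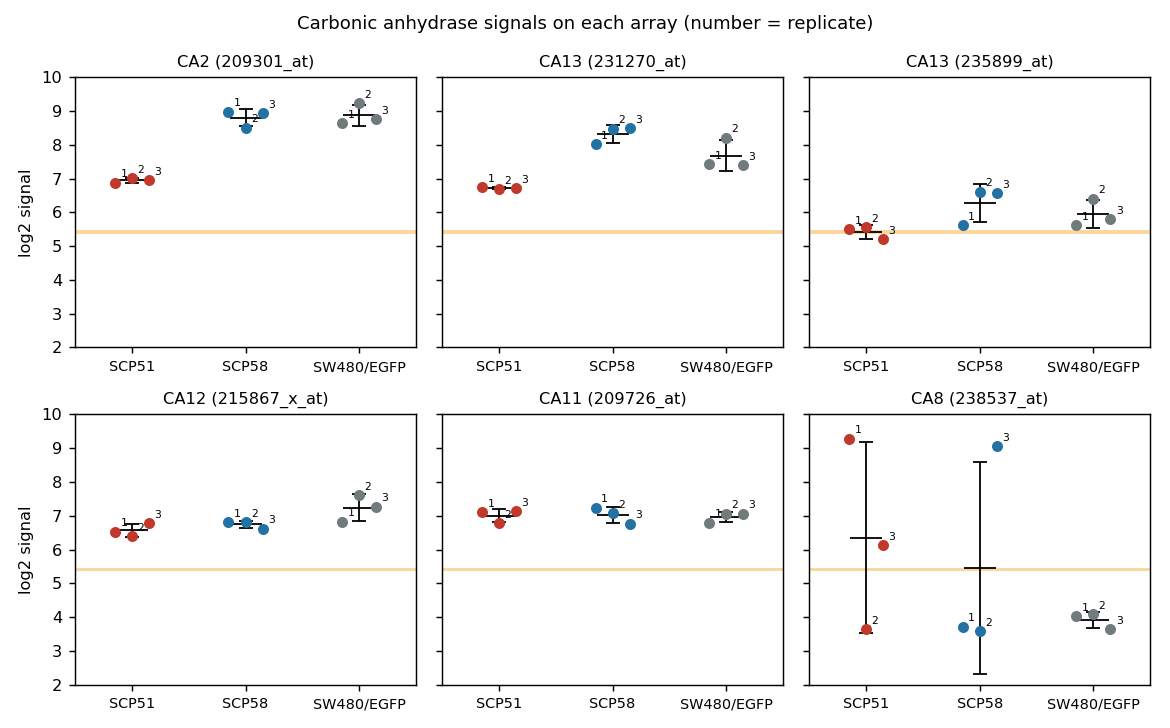
Log2 signal of each array for CA2, both probe sets of CA13, CA12, CA11 and CA8, by line, with the replicate number beside each point. Black bars are means ± SD of 3 arrays, and the amber band is the range of the 9 array medians. All SCP51 points of CA2 and of the brighter CA13 probe set lie below those of the other lines, while the CA8 points of SCP51 and SCP58 range from far below to far above the band.

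CA2 is the cytosolic enzyme with very high activity that is found in many tissues. Its signal was 117, 129 and 123 on the 3 SCP51 arrays, 502, 363 and 490 on the SCP58 arrays, and 397, 599 and 429 on the SW480/EGFP arrays. All SCP51 values lay below all values of the other lines, and SCP58 and the parent overlapped. The means were 123 ± 6.13 in SCP51, 452 ± 76.9 in SCP58 and 475 ± 109 in SW480/EGFP (SD, n = 3 each).

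The CA2 log2 difference of SCP51 minus SCP58 was -1.86 ± 0.19 (SE), a signal 3.63-fold lower in SCP51, with a limma adjusted p of 0.00305. Against the parent it was -1.93 ± 0.19, 3.80-fold lower in SCP51, with an adjusted p of 0.00227. SCP58 minus SW480/EGFP gave -0.06 ± 0.19 with a 95% interval of -0.50 to 0.37, an interval that leaves out a change of the size seen in SCP51. The call did not rest on the array that stood apart: without SCP51 replicate 1 the differences were -1.82 against SCP58 and -1.89 against the parent. CA2 was called in both SCP51 comparisons under all 20 alternatives tried.

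CA13 is a cytosolic enzyme whose gene is a near neighbour of CA2 on chromosome 8, with CA1 and CA3 between them. On its brighter probe set the signal was 107, 103 and 105 in SCP51, 258, 355 and 358 in SCP58, and 172, 295 and 167 in SW480/EGFP. SCP51 lay below both other lines on every array and varied little. The parent spread widely, and its replicate 2 fell inside the range of SCP58.

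The CA13 log2 difference of SCP51 minus SCP58 was -1.61 ± 0.23, 3.05-fold lower in SCP51, with a limma adjusted p of 0.00917. This call is lost without SCP58 replicate 2, where the difference was -1.53 with an adjusted p of 0.0525, and it held under the other 19 of 20 alternatives. SCP51 minus SW480/EGFP was -0.96 ± 0.23 with an adjusted p of 0.0681, so the parent lay between the derived lines without a call on either side. SCP58 minus SW480/EGFP was 0.65 ± 0.23 with an adjusted p of 0.466. When arrays were weighted by how well they fitted, CA13 passed the test in both: -0.78 with an adjusted p of 0.046 for SCP51 minus SW480/EGFP, and 0.93 with an adjusted p of 0.0139 for SCP58 minus SW480/EGFP.

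The second CA13 probe set was dimmer, above the array median on 8 of 9 arrays. Its signal was 45.4, 46.9 and 36.7 in SCP51, 48.9, 97.8 and 95.1 in SCP58, and 49.2, 84.9 and 55.8 in SW480/EGFP. SCP51 was again lowest on every array, but SCP58 replicate 1 and SW480/EGFP replicate 1 lay close above it. The differences had the same signs as on the brighter probe set and none was called: -0.85 ± 0.30 for SCP51 minus SCP58 (limma adjusted p = 0.17), -0.53 ± 0.30 for SCP51 minus SW480/EGFP (adjusted p = 0.391) and 0.32 ± 0.30 for SCP58 minus SW480/EGFP (adjusted p = 0.913). Over the 9 arrays the 2 probe sets had a Pearson r of 0.884, and CA13 on its brighter probe set had an r of 0.860 with CA2 (0.829 without SCP51 replicate 1). These points share arrays and lines, so the r values only describe these libraries.

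In counts of separation, the arrays of the compared lines did not overlap for 2 of the 5 genes in SCP51 minus SCP58 (CA2 and CA13), where 25.1% of all genes did not overlap. They did not overlap for 3 of 5 in SCP51 minus SW480/EGFP (CA2, CA12 and CA13), where the share of all genes was 28.1%. In SCP58 minus SW480/EGFP it was 1 of 5 (CA12), where the share was 17.0%.

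CA12 is a transmembrane enzyme with an extracellular active site and is known from many carcinomas. Of its 7 probe sets, 4 passed the filter of lying above the array median on at least 3 arrays. The brightest of them, 215867_x_at, gave signals of 92.5, 84.6 and 110 in SCP51, 112, 112 and 98.1 in SCP58, and 114, 197 and 155 in SW480/EGFP. SCP51 and SCP58 overlapped, and both lay below the parent, SCP58 by a narrow margin between its highest array and the lowest parent array.

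The log2 difference on this probe set was -0.67 ± 0.20 for SCP51 minus SW480/EGFP, with a limma adjusted p of 0.122. It was -0.50 ± 0.20 for SCP58 minus SW480/EGFP (adjusted p = 0.523) and -0.17 ± 0.20 for SCP51 minus SCP58 (adjusted p = 0.655). None of the 3 was called, in these fits or under any of 20 alternatives.

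The CA12 probe sets disagreed with each other. A second one whose name also ends in _x_at, a mark of probes that can match other transcripts, followed the first over the 9 arrays with an r of 0.913 and gave -0.59 ± 0.20 for SCP51 minus SW480/EGFP (limma adjusted p = 0.193). The others that passed the filter, 203963_at and 204509_at, gave differences of 0.05 and -0.03 in the same comparison. When all its probe sets that passed were averaged, CA12 differed by -0.31 between SCP51 and the parent (adjusted p = 0.303).

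The remaining 3 CA12 probe sets did not pass the filter. On 204508_s_at the signals ran from 26.8 to 33.0 in SCP51, from 27.6 to 36.3 in SCP58 and from 30.2 to 40.5 in SW480/EGFP, under the median on every array. On 241230_at they ran from 17.3 to 26.7 in SCP51, from 18.3 to 28.4 in SCP58 and from 15.7 to 20.8 in SW480/EGFP. On 210735_s_at a single array, SCP51 replicate 1, reached 75.4, while the other SCP51 arrays gave 23.7 and 27.8. That array is the one that stood apart, and its part in this value was not tested.

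**Figure D2:**
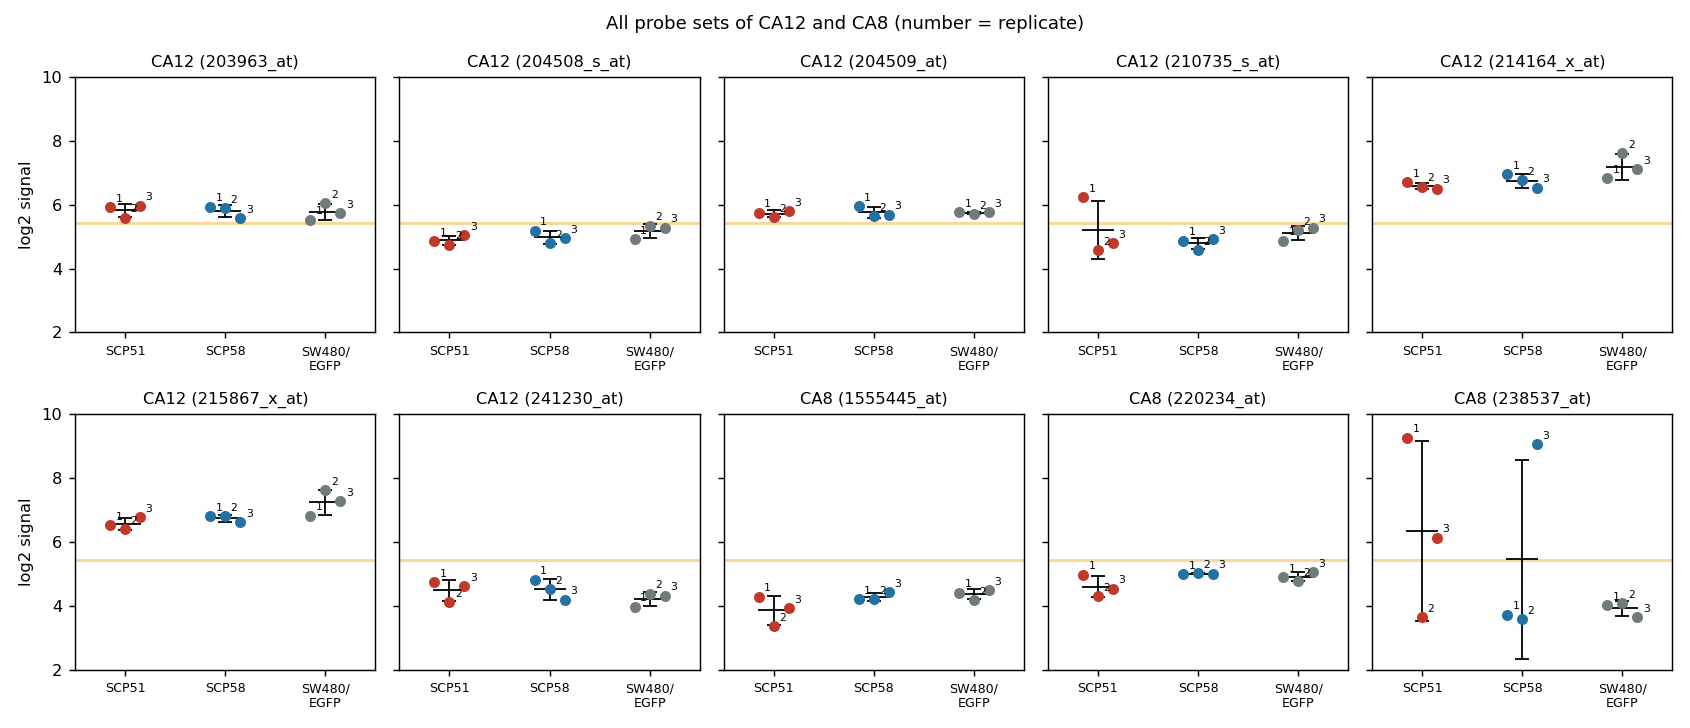
Log2 signal of each array for the 7 probe sets of CA12 and the 3 of CA8, by line, with replicate numbers, means ± SD of 3 arrays and the range of array medians in amber. Both CA12 probe sets ending in _x_at sit above the band and are highest in SW480/EGFP, the other CA12 probe sets are near or below it, and only 238537_at of CA8 rises above it, on 3 arrays.

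CA8 is best known from the Purkinje cells of the brain, where it binds the inositol trisphosphate receptor. Its brightest probe set, 238537_at, gave 621, 12.5 and 70.2 in SCP51, 13.2, 11.9 and 537 in SCP58, and 16.3, 17.0 and 12.6 in SW480/EGFP. Only SCP51 replicates 1 and 3 and SCP58 replicate 3 were above the array median, and these 3 arrays are what let the probe set pass the filter. The other arrays of the same lines were as dim as the parent.

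The CA8 log2 differences were 0.89 ± 1.67 for SCP51 minus SCP58 (limma adjusted p = 0.797), 2.43 ± 1.67 for SCP51 minus SW480/EGFP (adjusted p = 0.437) and 1.54 ± 1.67 for SCP58 minus SW480/EGFP (adjusted p = 0.94). The spread within each derived line was larger than the differences, and the 95% interval of SCP51 minus SCP58 ran from -2.91 to 4.70. Without any 1 of the 3 bright arrays the probe set no longer passed the filter, so no value was had without SCP51 replicate 1.

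The other CA8 probe sets did not show the bright arrays. On 220234_at the signals were 31.5, 19.8 and 23.2 in SCP51, 31.7, 32.7 and 32.2 in SCP58, and 30.0, 27.3 and 33.5 in SW480/EGFP. On 1555445_at they were 19.5, 10.3 and 15.2 in SCP51, 18.5, 18.6 and 21.5 in SCP58, and 21.4, 18.2 and 22.4 in SW480/EGFP. Both lay under the median on all 9 arrays and went together with an r of 0.924, while their r with 238537_at was 0.178 for 220234_at and 0.239 for 1555445_at.

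CA11 is a relative of these enzymes without catalytic activity. Its signal was 138, 111 and 140 in SCP51, 151, 136 and 109 in SCP58, and 111, 134 and 133 in SW480/EGFP, so the 3 lines overlapped fully. The log2 difference of SCP51 minus SCP58 was -0.02 ± 0.16 with a 95% interval of -0.39 to 0.34 (limma adjusted p = 0.945), and its sign turned to 0.04 after quantile normalisation. Against the parent, SCP51 differed by 0.04 ± 0.16 (adjusted p = 0.923) and SCP58 by 0.06 ± 0.16, also not called. The errors were close to the 0.19 of CA2.

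Of the other family genes, CA1, CA4, CA5B, CA7 and CA14 were tested and none was called by limma in any comparison. CA1, a cytosolic enzyme of red cells and colonic epithelium, gave 61.6, 43.5 and 48.7 in SCP51, 65.7, 49.3 and 46.9 in SCP58, and 51.0, 55.1 and 59.4 in SW480/EGFP. It lies between CA13 and CA2 and was near the array medians, with a log2 difference of -0.07 ± 0.18 for SCP51 minus SCP58.

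CA4, an enzyme anchored by a lipid to the outer face of the plasma membrane, varied between arrays of a line. Its signals were 85.4, 21.0 and 13.8 in SCP51, 16.3, 14.99 and 51.4 in SCP58, and 14.4, 13.1 and 64.5 in SW480/EGFP, with 1 bright array in each line. The mitochondrial CA5B, the cytosolic CA7 and the transmembrane CA14 stayed near the medians, and their differences ranged from -0.12 to 0.03 over the 3 comparisons. CA3, CA5A, CA6 and CA10 did not pass the filter. Over the 10 tested family genes the median log2 difference was -0.08 for SCP51 minus SCP58, -0.08 for SCP51 minus SW480/EGFP and -0.01 for SCP58 minus SW480/EGFP, against -0.11, -0.10 and 0.00 over all genes.

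**Figure D3:**
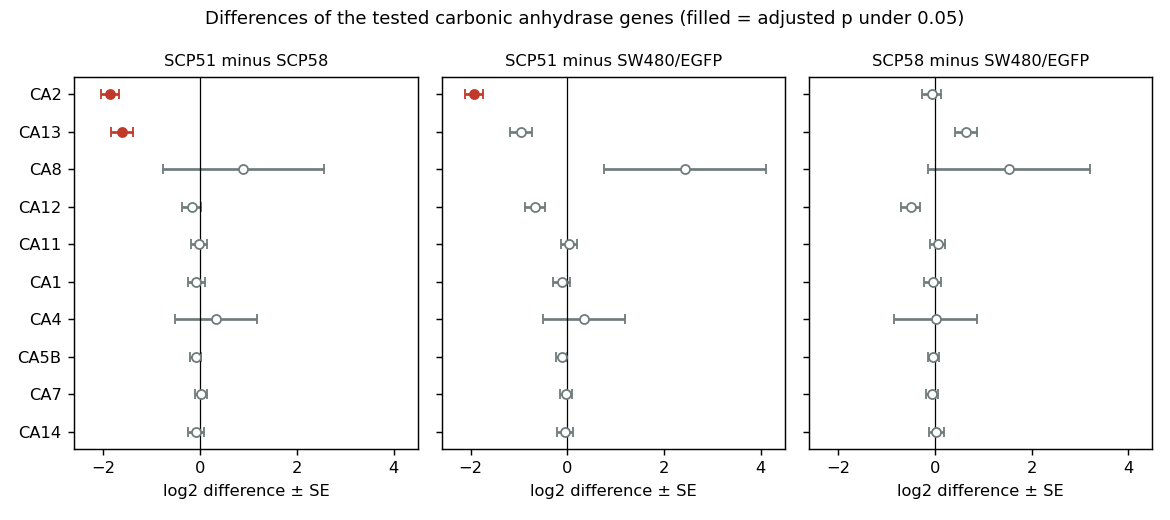
Log2 differences ± SE of the 10 tested carbonic anhydrase genes in the 3 comparisons, from the limma fit to all 9 arrays. Filled red points have an adjusted p under 0.05: CA2 and CA13 in SCP51 minus SCP58, and CA2 alone in SCP51 minus SW480/EGFP. CA8 and CA4 have the widest errors.

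Genes next to CA2 and CA13 had log2 differences below 0 as well. The 5 nearest tested genes outside the family on each side, in RefSeq order, are the same 10 for both genes. In SCP51 minus SCP58, 10 of 10 had a log2 difference below 0 with a median of -0.63, and 3 were called lower. Of all tested genes, 65.03% were below 0 there and 4.08% were called. Over tested chromosome 8 genes outside the family these shares were 76.3% and 17.1%. In SCP51 minus SW480/EGFP, 10 of 10 were below 0 with a median of -0.65, and 1 was called lower. The shares there were 63.96% and 2.96% of all tested genes, and 77.2% and 13.2% on chromosome 8. In SCP58 minus SW480/EGFP, limma called 0 of 10, 1 had an unadjusted p under 0.05, and the median was 0.10.

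RBIS, a factor of ribosome assembly and the tested gene next to CA13, had signals of 672, 619 and 869 in SCP51, 1591, 1417 and 1449 in SCP58, and 1407, 1333 and 1436 in SW480/EGFP. SCP51 lay below both other lines on every array, with differences of -1.06 ± 0.14 against SCP58 (limma adjusted p = 0.0077) and -0.97 ± 0.14 against the parent (adjusted p = 0.00976). SNX16, a sorting nexin of endosomes, differed by -1.04 ± 0.22 (adjusted p = 0.04) and CPNE3, a calcium-binding copine, by -0.79 ± 0.14 (adjusted p = 0.0208), both in SCP51 minus SCP58. The SNX16 call held under 8 of 20 alternatives and the CPNE3 call under 16. The RBIS call held under all 20 against SCP58 and under 18 against the parent. On the tested probe sets, CA2 and CA13 differed more in SCP51 minus SCP58 than any of these 10 neighbours. On the second CA13 probe set the difference was -0.85, smaller in size than those of RBIS and SNX16. In SCP51 minus SW480/EGFP, CA13 at -0.96 was not larger in size than RBIS at -0.97. The differences between genes were not tested.

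Around CA8 most genes had differences below 0 in the SCP51 comparisons. CA8 itself was above 0 there on its tested probe set, with an error of 1.67. On its 2 other probe sets, both under the array medians, mean log2 signals were lowest in SCP51. They were 4.61 in SCP51, 5.01 in SCP58 and 4.91 in SW480/EGFP on 220234_at, and 3.86, 4.28 and 4.36 on 1555445_at. The SCP51 arrays overlapped the parent on both probe sets, and SCP58 on 1555445_at. Neither probe set passed the filter, so these differences were not tested. Of the 10 nearest tested genes around CA8, 10 had a log2 difference below 0 in SCP51 minus SCP58, with a median of -0.75, and 4 were called lower. Of tested chromosome 8 genes outside the family, 76.3% were below 0 there and 17.1% were called. The same 4 were called lower in SCP51 minus SW480/EGFP, where 8 of 10 were below 0 and the median was also -0.75. The chromosome 8 shares there were 77.2% and 13.2%. Where SCP58 was set against SW480/EGFP, CA8 was above 0 too on its tested probe set, again with an error of 1.67. Of the 10 neighbours, 2 were below 0, against 49.3% of tested chromosome 8 genes outside the family. Their median was 0.08, limma called 0 of 10 and 1 had an unadjusted p under 0.05.

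The 4 genes are RAB2A, a GTPase of transport between the endoplasmic reticulum and the Golgi, CHD7, a chromatin remodeller, GGH, the gamma-glutamyl hydrolase of folate metabolism, and SDCBP, the scaffold protein syntenin. RAB2A, the nearest tested gene on one side, had signals of 528, 537 and 518 in SCP51, 1056, 1285 and 1305 in SCP58, and 1042, 1081 and 1081 in SW480/EGFP. Its differences were -1.20 ± 0.11 against SCP58 (limma adjusted p = 0.00305) and -1.02 ± 0.11 against the parent (adjusted p = 0.00343). In SCP51 minus SCP58, CHD7 differed by -0.80 ± 0.12 (adjusted p = 0.0103), GGH by -1.16 ± 0.14 (adjusted p = 0.0052) and SDCBP by -1.01 ± 0.18 (adjusted p = 0.0219). SDCBP lost its call against the parent without SCP51 replicate 1 (-0.75, adjusted p = 0.0517) and held it under 7 of 20 alternatives. The SDCBP call against SCP58 held under 16 of 20. TOX, the nearest tested gene on the other side, differed by -0.05 ± 0.83 in SCP51 minus SCP58 and by 1.49 in SCP51 minus SW480/EGFP, where 8 of the 10 were below 0.

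**Figure D4:**
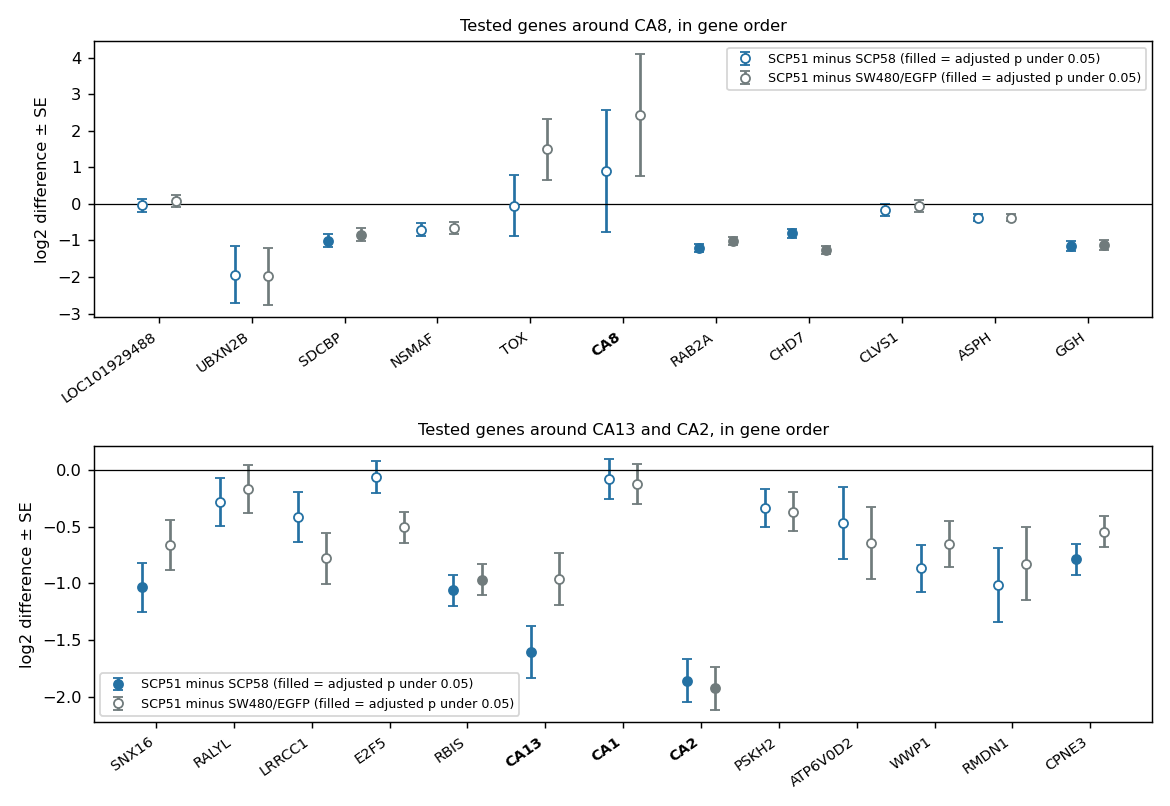
Log2 differences ± SE of the tested genes on each side of CA8 (top) and of CA13 and CA2 (bottom), in gene order along chromosome 8, for SCP51 minus SCP58 in blue and SCP51 minus SW480/EGFP in grey. Filled points have an adjusted p under 0.05. Most points lie below 0, CA8 and TOX have long error bars, and CA2 and CA13 lie lowest in the bottom panel in SCP51 minus SCP58.

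Chromosome 8 as a whole gives the setting for these values. Of its 469 tested genes outside the family, 76.3% had a log2 difference below 0 in SCP51 minus SCP58, against 65.03% of all tested genes, with a median of -0.26. There 72 were called lower and 8 higher, which is 17.1% of them, against 4.08% of all genes. In SCP51 minus SW480/EGFP, 77.2% were below 0, against 63.96% of all tested genes, and 58 were called lower and 4 higher, which is 13.2%, against 2.96%. In SCP58 minus SW480/EGFP limma called none of them, and their median was 0.00. Copy number was not measured in these samples, and its part in the differences was not tested.

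Around CA11 on chromosome 19, limma called 0 of 10 neighbours in SCP51 minus SCP58, where 3 had an unadjusted p under 0.05, 8 were below 0 and the median was -0.26 (-0.15 without SCP51 replicate 1). Around CA12 on chromosome 15, 8 of 10 were below 0 with a median of -0.44 (-0.23 without that array), and 1 was called lower. A count of 8 of 10 is near the general share, since 67.2% of tested genes outside the family on chromosome 19 and 65.6% on chromosome 15 were below 0 in this comparison. Their medians were -0.11 on chromosome 19 and -0.12 on chromosome 15, and 1.71% and 3.21% of them were called. The called neighbour of CA12 was RAB8B, a GTPase of membrane transport, at -1.25 ± 0.24 (limma adjusted p = 0.0307), a call that held under 14 of 20 alternatives.

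The genes whose log2 signals over the 9 arrays were most like those of CA2 were RAB38, a GTPase of lysosome-related organelles, with a Pearson r of 0.987, MTSS1, an actin regulator, with 0.983, and TOP1MT, the mitochondrial topoisomerase, with 0.980. MTSS1 and TOP1MT lie on chromosome 8 and RAB38 on chromosome 11. TOP1MT had signals of 258, 295 and 290 in SCP51, 451, 444 and 460 in SCP58, and 478, 506 and 453 in SW480/EGFP, lowest in SCP51 on every array as CA2 was. Of the 196 genes with an r above 0.9 to CA2, 54 (27.6%) lie on chromosome 8, which holds 3.48% of all tested genes.

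For CA13 the most similar genes were TAP2, a peptide transporter of antigen presentation, with an r of 0.980, TLE1, a transcriptional corepressor, with 0.974, and PPM1A, a protein phosphatase, with 0.970. TLE1 had signals of 134, 121 and 149 in SCP51, 310, 370 and 354 in SCP58, and 231, 303 and 240 in SW480/EGFP, with the parent between the derived lines as for CA13. Of 163 genes with an r above 0.9 to CA13, 19 (11.7%) lie on chromosome 8. All these r values are over arrays that share their lines, and they carry no p.

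CA8 had a pattern that other genes shared on single arrays. PSMC4, an ATPase subunit of the proteasome, had an r of 0.968 with CA8 (0.945 without SCP51 replicate 1), with signals of 5050, 418 and 1936 in SCP51, 764, 784 and 3580 in SCP58, and 746, 754 and 726 in SW480/EGFP. The same 3 arrays were high as for CA8, which follows from picking PSMC4 by its likeness to CA8. GPR25, an orphan receptor, had an r of 0.953 and MTFR1L, a mitochondrial protein, one of 0.952. MTFR1L did not separate SCP51 replicate 3 (168) from SCP51 replicate 2 (165). Of the 19 genes with an r above 0.9 to CA8, 0 lie on chromosome 8, which holds 3.48% of all tested genes. A list of 19 is too short to tell 0 from that share.

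**Figure D5:**
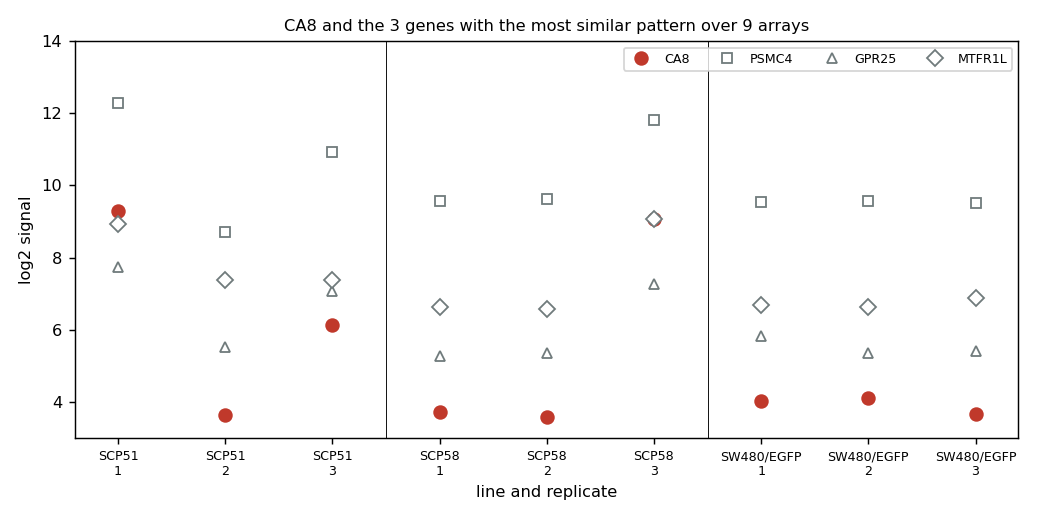
Log2 signals of CA8 (filled red) and of PSMC4, GPR25 and MTFR1L (open grey) on each of the 9 arrays, grouped by line. All 4 genes are raised on SCP51 replicate 1 and SCP58 replicate 3 relative to the SW480/EGFP arrays, and heights are not to be compared between genes.

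For CA11 the most similar genes were HCN4 (r = 0.974), JPH2 (r = 0.969) and LINC01315 (r = 0.967). Of 56 genes with an r above 0.9 to CA11, 9 (16.1%) lie on chromosome 19, which holds 6.91% of all tested genes. For CA12 they were ZNF598 (r = 0.950), LURAP1L (r = 0.933) and CHD3 (r = 0.922). Of 9 genes above 0.9 to CA12, 0 lie on chromosome 15, which holds 3.21% of all tested genes. So few genes cannot tell 0 from that share. ZNF598, a ubiquitin ligase that senses stalled ribosomes, had signals of 100.4, 96.2 and 109.7 in SCP51, 101.5, 106.5 and 98.2 in SCP58, and 120.8, 150.2 and 139.2 in SW480/EGFP, so the parent was highest there too.

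Bicarbonate and protons made by these enzymes are moved by transporters, and 15 of 23 genes of such a list were tested. In SCP51 minus SCP58, limma called 0 of 15, where 3 had an unadjusted p under 0.05, 10 were below 0 and the median was -0.09. A count of 10 of 15 is near the 65.03% of all tested genes below 0, whose median was -0.11. The largest differences of the list were -0.69 ± 0.22 for SLC26A2, a sulfate transporter (limma adjusted p = 0.116), and -0.64 ± 0.46 for SLC4A1, the anion exchanger of red cells (adjusted p = 0.459). SLC4A1 rests on SCP51 replicate 1, which gave 25.9 against 79.7 and 113.6 on the other SCP51 arrays, and its difference was -0.01 without that array. SLC26A2 differed by -0.44 without it.

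In SCP51 minus SW480/EGFP, 1 of 15 was called and 13 were below 0, with a median of -0.24 (-0.15 without SCP51 replicate 1 and -0.14 without SCP51 replicate 2). The called gene was SLC4A3, a chloride and bicarbonate exchanger, with signals of 104.5, 115.0 and 122 in SCP51, 80.2, 81.0 and 90.5 in SCP58, and 81.5, 80.9 and 76.3 in SW480/EGFP. It was 1.43-fold higher in SCP51 (0.52 ± 0.10, limma adjusted p = 0.0395), a call that held under 9 of 20 alternatives and was lost without any 1 of the arrays except SCP51 replicate 1. In SCP58 minus SW480/EGFP, limma called 0 of 15, 2 had an unadjusted p under 0.05, 11 were below 0 and the median was -0.13 (-0.01 without SCP58 replicate 3 and -0.05 without SW480/EGFP replicate 2). The share of all tested genes below 0 was 50.13% there.

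CA9 and CA12 are known targets of the hypoxia-inducible factors, so 27 other targets of these factors were set beside CA12, and all 27 were tested. In SCP51 minus SCP58, 2 were called, both higher, 22 of 27 were above 0 and the median was 0.30. Over all tested genes 4.08% were called, 65.03% were below 0 and the median was -0.11. STC2, a secreted stanniocalcin, had signals of 534, 875 and 792 in SCP51, 272, 246 and 261 in SCP58, and 354, 795 and 337 in SW480/EGFP. SCP51 was above SCP58 on every array, 2.77-fold by the fit (1.47 ± 0.33, limma adjusted p = 0.0461), and overlapped the parent. That call held under 9 of 20 alternatives.

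SLC2A1, the glucose transporter of most cells, differed by 0.55 ± 0.10 in SCP51 minus SCP58 (limma adjusted p = 0.0232), a call that held under 13 of 20 alternatives. Its difference turned to -0.23 (adjusted p = 0.72) when its probe sets were averaged, so its direction depends on the probe set. In SCP51 minus SW480/EGFP limma called 0 of 27, 4 had an unadjusted p under 0.05 and the median was 0.00. In SCP58 minus SW480/EGFP it called 0 of 27, and 8 had an unadjusted p under 0.05, a count without a general share to set it against. Of the 27, 24 were below 0, against 50.13% of all tested genes, and the median was -0.51. That median rests largely on SW480/EGFP replicate 2: of the 3 parent arrays it was the highest for 26 of the 27 targets, and without it 19 were below 0 and the median was -0.13. The median of SCP51 minus SW480/EGFP was 0.15 without that array. Within the parent, CA2, CA5B, CA7, CA8, CA11, CA12 and CA13 were highest on that array on their tested probe sets. CA1, CA4 and CA14 were not. CA12 was also highest there on 203963_at, 204508_s_at, 214164_x_at and 241230_at, but not on 210735_s_at, and on 204509_at it was lowest. How many of all genes were highest on that array was not counted. On its brightest probe set the CA12 difference of SCP58 minus SW480/EGFP was -0.50 with that array and -0.31 without it.

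Of the factors and their regulators, 6 of 7 were tested and limma called 0 in each comparison, with 0 at an unadjusted p under 0.05 in SCP51 minus SCP58, 1 in SCP51 minus SW480/EGFP and 2 in SCP58 minus SW480/EGFP. The largest differences in SCP51 minus SCP58 were -0.28 ± 0.16 for ARNT, the shared partner of the factors (limma adjusted p = 0.35), and 0.22 ± 0.15 for EGLN1, a prolyl hydroxylase that marks them for breakdown (adjusted p = 0.448).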

How the data were processed

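Total RNA of 9 samples, 3 per line, was hybridised to Affymetrix arrays of 54675 probe sets. The deposited values are linear intensities, and the submitters' processing notes name GCOS 1.4 as the software. Its scaling target and probe summary were not given in the sources used here. Detection calls were not used. The number of arrays limits the precision.

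Deposited intensities under 1 (514 values) were raised to 1 before log2, and no scaling was added. Control probe sets (62) were excluded. Probe sets above the array median on at least 3 of 9 arrays were kept (29166), and for each gene the probe set with 1 symbol and the highest mean log2 signal was tested. Symbols and gene order came from a RefSeq table, in which 99.9% of the annotation's Entrez identifiers matched, and no coordinates are given. Of all probe sets, 41091 had 1 symbol, 1801 several and 11721 none.

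Each difference comes from limma 3.58.1 (R 4.3.3), fitted to all 9 arrays with moderated variances and an intensity trend, two-sided, with Benjamini-Hochberg adjustment over 13598 genes. The script was tested on simulated data. The genes, lists and tests were chosen with earlier results of these data known. Named from the lists were the called genes or, where none was called in SCP51 minus SCP58, the 2 with the largest difference there. Named as similar were the 3 genes with the highest r. Alternatives were other filters, scalings, offsets, variance settings, probe set rules, a replicate block, and each array left out. Those for genes outside the family, lists and neighbours were chosen after seeing the data.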

Additional observations from a re-analysis of the deposited data

How the results depend on the processing

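CA2 kept its direction and its call in both SCP51 comparisons under all 20 alternatives, with adjusted p from 0.00161 to 0.0209 against SCP58 and from 0.000595 to 0.0195 against the parent. The number of carbonic anhydrase genes called was 2, 1 and 0 in SCP51 minus SCP58, SCP51 minus SW480/EGFP and SCP58 minus SW480/EGFP. With array weights it was 2, 2 and 1. With single arrays left out it was 1 to 2 in SCP51 minus SCP58, the 1 being without SCP58 replicate 2. CA8 gave a value under 16 alternatives and did not pass the filter under the other 4. CA11 and SLC2A1 changed sign as given with their values (SLC2A1 to -0.23 with averaged probe sets).

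The number of all genes called moved more, in the same order of comparisons: 555, 402 and 19 as reported, 1527, 1356 and 1351 with array weights, 124, 102 and 12 at an adjusted p under 0.01, and 134, 151 and 31 with only the 6 arrays compared. With every probe set by itself it was 976, 552 and 39. With single arrays left out it ranged from 137 to 1189, from 122 to 724 and from 0 to 75, highest each time without SCP51 replicate 1. After quantile normalisation the calls of SCP51 minus SCP58 were 319 higher and 302 lower, against 201 higher and 354 lower as reported, and the median over all genes was -0.05, against -0.11. In SCP51 minus SW480/EGFP they were 246 higher and 169 lower, against 187 higher and 215 lower.

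Replicate numbers are shared between lines, but same-numbered arrays did not deviate together (r from -0.22 to 0.13), so they were not taken as pairs. In a fit that held replicate as a block, 210, 167 and 6 genes were called, while the carbonic anhydrase counts stayed at 2, 1 and 0. The causes of these shifts were not tested. With 3 arrays a line, the tested probe sets of CA8 and CA4, which were bright on single arrays and dim on the others, have errors of 1.67 and 0.85 log2 units, too wide to show smaller differences between lines.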
